A study of Rattus norvegicus with 105 samples.

Results

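The comparison described here sets rat hepatocytes exposed to 1-nitropropane at 1 mM and at 3 mM against cells kept in medium. It takes up 9 of the 105 libraries of the study, chosen by compound, concentration and library set as the labels give them: 3 libraries at 1 mM, 3 at 3 mM and 3 of the medium control of the same set. 1-Nitropropane (1NP) is a nitroalkane, a short carbon chain with a nitro group at its end. The cells were primary liver cells, bought as a single lot from female Sprague-Dawley rats and grown on collagen in 96-well plates in serum-containing medium with insulin, transferrin and selenium, and exposed for 24 hours. RNA was read with TempO-Seq, where neighbouring detector oligonucleotides bind their target RNA, are joined by a ligase and are then amplified and sequenced, so that each value is the count of a probe and not of a whole transcript. Other libraries of the same set served as further controls: 3 of DMSO, the vehicle control of the study, and 12 of 1NP at 0.003 to 0.1 mM. Libraries of 1NP at 10 mM, and of the shorter nitroalkanes nitroethane (NE) and nitromethane (NM) with their own medium, were used where named. The sample titles give the concentrations in µM and the treatment protocol in mM; mM is used here. The labels do not say whether the 1NP wells held DMSO, and they name the probe panel as a human one while the probes carry rat gene symbols. They speak of biological replicates, but with a single cell lot the p-values reflect how much wells vary and say nothing of animals.

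Nitroalkanes are taken up by the liver, where oxidases release the nitro group and leave the matching aldehyde, which dehydrogenases and reductases clear. A compound that burdens hepatocytes can be read from a few well-known programmes. The unfolded protein response raises chaperones of the endoplasmic reticulum (ER) when secretory proteins fail to fold. PPARα, a nuclear receptor for fatty acids, drives fatty acid binding and oxidation in rodent liver. NRF2 raises antioxidant and conjugating enzymes, and p53 answers DNA damage. Hepatocytes in culture also carry a large secretory load of complement, coagulation and transport proteins.

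RefSeq promoter windows of the rat assembly GRCr8 are shown for 5 genes described below, because they carry motifs for which the unfolded protein response and PPARα are known. Each window is written 5′ to 3′ on the strand of its gene, across the annotated start. The motifs searched were the ER stress element, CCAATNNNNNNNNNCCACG with its reverse complement CGTGGNNNNNNNNNATTGG, and the nuclear receptor core motif, AGGTCA with its reverse complement TGACCT. The first 4 windows, of chaperone genes, have the ER stress element in capitals. The window of Fabp1, the liver fatty acid binding protein, has the core motif in capitals. They lie at chr10:35157808-35158107 (Canx, minus strand), chr19:40213117-40213416 (Calr, plus strand), chr3:38452766-38453065 (Hspa5, plus strand), chr7:23012244-23012543 (Hsp90b1, minus strand) and chr4:104749090-104749389 (Fabp1, plus strand).
Canx: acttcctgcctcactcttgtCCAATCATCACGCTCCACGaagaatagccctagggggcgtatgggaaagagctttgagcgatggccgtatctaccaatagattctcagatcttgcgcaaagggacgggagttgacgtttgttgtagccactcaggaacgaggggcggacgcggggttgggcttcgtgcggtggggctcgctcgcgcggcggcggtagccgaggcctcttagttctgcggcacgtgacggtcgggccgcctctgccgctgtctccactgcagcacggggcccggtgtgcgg
Calr: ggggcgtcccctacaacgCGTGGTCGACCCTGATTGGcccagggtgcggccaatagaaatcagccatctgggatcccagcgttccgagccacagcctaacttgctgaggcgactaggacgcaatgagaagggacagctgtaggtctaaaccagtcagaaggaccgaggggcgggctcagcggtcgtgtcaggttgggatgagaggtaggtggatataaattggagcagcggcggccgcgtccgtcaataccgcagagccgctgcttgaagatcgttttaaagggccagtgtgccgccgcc
Hspa5: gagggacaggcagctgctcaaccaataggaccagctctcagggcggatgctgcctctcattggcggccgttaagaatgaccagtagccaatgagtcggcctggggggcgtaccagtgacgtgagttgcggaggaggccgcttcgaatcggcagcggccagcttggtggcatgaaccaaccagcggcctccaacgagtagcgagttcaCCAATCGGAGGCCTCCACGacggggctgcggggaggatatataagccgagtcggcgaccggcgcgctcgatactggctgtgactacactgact
Hsp90b1: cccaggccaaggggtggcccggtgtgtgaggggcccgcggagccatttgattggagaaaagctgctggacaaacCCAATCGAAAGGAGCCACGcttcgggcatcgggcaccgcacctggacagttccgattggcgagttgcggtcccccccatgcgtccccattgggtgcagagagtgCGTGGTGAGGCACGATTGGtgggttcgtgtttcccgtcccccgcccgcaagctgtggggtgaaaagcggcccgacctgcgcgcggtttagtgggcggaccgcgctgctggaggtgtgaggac
Fabp1: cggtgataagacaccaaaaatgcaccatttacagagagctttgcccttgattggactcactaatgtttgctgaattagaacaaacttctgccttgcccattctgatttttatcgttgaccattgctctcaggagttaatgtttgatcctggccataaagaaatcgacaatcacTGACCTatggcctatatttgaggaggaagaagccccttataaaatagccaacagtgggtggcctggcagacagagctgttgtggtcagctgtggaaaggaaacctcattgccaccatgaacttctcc
The ER stress element was found in 22 of 33469 RefSeq promoter windows of the same length (0.0657%). It was present in 8 of the 12 ER list genes that had a window, namely Calr, Canx, Creld2, Dnajc3, Ero1b, Hsp90b1, Hspa5 and Xbp1, with more than 1 match in Hsp90b1. Its letters were not in the windows of Edem1, Herpud1, Hyou1 and Sel1l. The core motif is short and common: it was in 5415 windows (16.2%), and in 8 of the 26 PPARα target genes with a window, among them Fabp1 and Eci2. For both motifs a gene was counted when any of its windows matched, while the percentages are shares of single windows. The counts of genes and the percentages are thus not like for like. A match describes the sequence and is not evidence of binding.

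The 9 libraries held 6893402 to 9448471 counts each, with 13369 to 14092 probes detected. By library totals alone, 3 counts corresponded to 0.318 to 0.435 CPM (the usual per-library scaling of counts). The levels of genes given below are CPM with TMM factors. Each library correlated with the others of its group at a median r of 0.954 to 0.980 over 8994 probes. Hepatocyte markers dominated, with a summed level of 9940 to 11400 CPM at 1 mM, 10800 to 12900 CPM at 3 mM and 8140 to 12400 CPM in medium. Cholangiocyte markers summed to 777 to 1460 CPM at 1 mM, 742 to 1150 CPM at 3 mM and 1280 to 1540 CPM in medium. Markers of lymphocytes and erythroid cells stayed under 1 CPM in all 9 libraries, and those of Kupffer cells between 2.88 and 5.25 CPM. Stellate cell and fibroblast markers summed to 338 to 413 CPM, nearly all of it from Reln (median 379 CPM). Endothelial markers summed to 12.7 to 21.5 CPM, mostly from Egfl7 (median 15 CPM). In such bulk samples fewer cells of a type and less RNA per cell cannot be told apart. The 1NP wells lay in plate columns 1 to 3 and the medium wells in columns 4 to 6 of another row, so compound and plate position cannot be told apart either.

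At 1 mM, 8 of 12129 probes were higher than in medium (0.066% of those tested) and none was lower (0%), by edgeR's quasi-likelihood test at a Benjamini-Hochberg adjusted p under 0.05. At 3 mM, 23 probes were higher (0.19%) and 4 lower (0.033%). With both concentrations pooled against medium, 66 were higher (0.544%) and 17 lower (0.14%). With library totals in place of TMM factors the split was 13 higher and 6 lower at 3 mM and 54 higher and 55 lower pooled. At an unadjusted p under 0.05 there were 1342, 1880 and 2052 probes at 1 mM, at 3 mM and pooled. Levels of the libraries did not overlap between 1NP and medium for 8 of 8, 27 of 27 and 65 of 83 called probes. Over all 12129 probes, called or not, libraries did not overlap for 11.6% at 1 mM, 19.5% at 3 mM and 6.46% pooled, and the called probes were picked by a test on the same libraries.

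The counts of calls depended on single libraries. Without medium replicate 5 no probe was called in any of the 3 contrasts, and without medium replicate 6 there were 290 calls at 1 mM, 415 at 3 mM and 667 pooled. Medium replicate 5 was the lowest of the 3 medium libraries for 51 of the 66 probes called higher and the highest for 13 of the 17 called lower. Over all 12129 probes it was the lowest for 31.7% and the highest for 30.4%. Without medium replicate 4 there were 2 calls at 1 mM, 30 at 3 mM and 34 pooled. At 1 mM, 31 probes were called without 1NP replicate 1 and 0 without replicate 2 or replicate 3. At 3 mM, 4 probes were called without replicate 2 and 0 without replicate 3. The pooled count was 389, 10 and 28 without replicates 1, 2 and 3 of 1 mM, and 23 and 10 without replicates 2 and 3 of 3 mM. Some genes below are named by a rule on size, level and non-overlap, and others as members of gene lists or known readouts. Further called genes were picked after their values were seen. These are Ndufa9, Nnt, Cox6b1, Nit1, Sult2a2, Serpind1, Fgl1, Hpn, Fkbp2, Sdf4 and Prom1. The rule also named probes not described below, such as LOC108352650 (log2 difference 1.29 pooled), Ebpl (0.94 at 3 mM) and Nrg1 (0.82 at 3 mM). Of the 83 probes, 21 have a symbol that RefSeq does not pair with a gene.

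**Figure D1:**
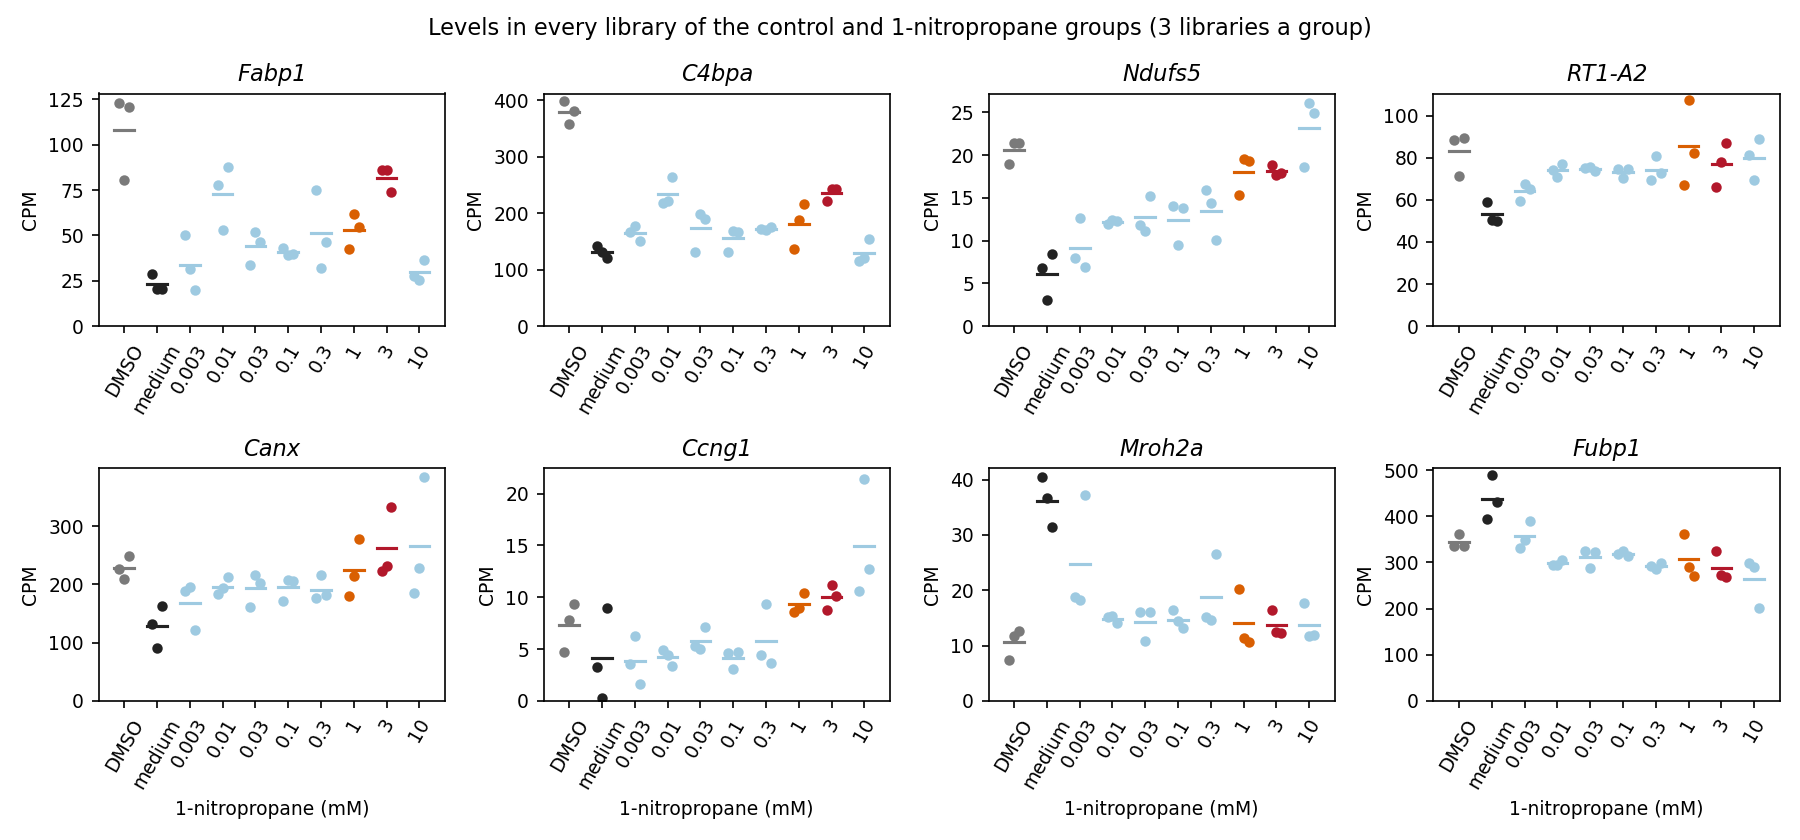
Levels (CPM, linear axis from 0) of 8 named genes in each library of DMSO, medium and the 8 concentrations of 1-nitropropane; each point is 1 of 3 libraries of a group. Fabp1, Ndufs5 and Canx lie above medium at 1 and 3 mM, and Mroh2a lies below medium at 1 and 3 mM.

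Among the called genes, Ndufs5, Ndufa9, Nnt and Cox6b1 encode mitochondrial proteins. They were chosen here from the calls and not as a list, and of them the naming rule picked only Ndufs5. The share of mitochondrial genes among all tested probes was not counted. Ndufs5, an accessory subunit of respiratory complex I, stood at 15.4, 19.5 and 19.3 CPM at 1 mM, at 18.8, 17.7 and 17.9 CPM at 3 mM, and at 6.81, 3.11 and 8.48 CPM in medium. All 6 exposed libraries were above all 3 medium libraries, and the rise was 1.60 ± 0.25 on the log2 scale pooled (SE; adjusted p = 0.00491), 1.60 ± 0.27 at 1 mM (0.0351) and 1.60 ± 0.27 at 3 mM (0.0124). Ndufa9, another complex I subunit, rose by 0.94 ± 0.20 pooled (0.0302), with 11, 14.6 and 16.6 CPM at 1 mM, 13.8, 13.8 and 15.3 CPM at 3 mM and 9.32, 4.82 and 8.48 CPM in medium. Nnt, the transhydrogenase that supplies mitochondrial NADPH, rose by 0.90 ± 0.20 pooled (0.0302). Cox6b1, of cytochrome c oxidase, rose by 0.41 ± 0.09 (0.0351), a smaller change in which the groups overlapped. The list of oxidative phosphorylation genes, which does not include these genes, had 0 of 21 probes called pooled, with 19 above 0 and a median log2 difference of 0.262, against 0.00455 over all probes tested. Without replicate 3 of 1, 3 and 10 mM, a setting explained with the ER genes below, that median was 0.130 with 15 of 21 above 0. Its members with the smallest p were Ndufa2 (0.46 ± 0.13, adjusted p = 0.0773) and Atp5f1b (0.38 ± 0.12, 0.0963).

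Lipid handling was led by Fabp1, which carries fatty acids in the hepatocyte cytosol and whose window is printed above. It stood at 42.4, 61.9 and 54.5 CPM at 1 mM, at 85.8, 86.2 and 73.7 CPM at 3 mM, and at 28.9, 20.7 and 20.3 CPM in medium. The groups did not overlap, and the 3 mM libraries all lay above the 1 mM libraries. The rise was 1.82 ± 0.29 at 3 mM (adjusted p = 0.0117) and 1.51 ± 0.26 pooled (0.0139). At 1 mM it was 1.21 ± 0.29 and missed the threshold (0.12). Eci2, an isomerase needed to oxidise unsaturated fatty acids, rose by 0.70 ± 0.17 pooled (0.0449), with 155, 176 and 159 CPM at 1 mM, 154, 145 and 201 CPM at 3 mM and 103, 78.3 and 128 CPM in medium. A probe named RGD1565355, which RefSeq pairs with Cd36l1, rose by 1.21 ± 0.22 at 1 mM (0.0351) and 1.28 ± 0.22 at 3 mM (0.0124). Another probe with no gene name, LOC103690020, stood at 139, 176 and 192 CPM at 1 mM, 187, 156 and 210 CPM at 3 mM and 100, 94.9 and 97.9 CPM in medium, without overlap, and rose by 0.87 ± 0.13 pooled (0.00491). Fabp3, the heart form of the fatty acid binding proteins, was at 0.98 at 1 mM and did not pass (0.0572).

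Of the 36 PPARα target probes tested, Fabp1 and Eci2 were called pooled, Fabp1 alone at 3 mM and none at 1 mM. Their median log2 difference was 0.309 at 1 mM, 0.525 at 3 mM and 0.389 pooled, against 0.0174, 0.00176 and 0.00455 over all probes, and 34 of the 36 were above 0 pooled. Among members that did not pass, Cyp4a1, a fatty acid hydroxylase, was at 1.15 ± 0.57 pooled (adjusted p = 0.309). A second Eci2 probe was at 0.61 ± 0.26 (0.222). Without replicate 3 of 1, 3 and 10 mM the pooled median was 0.206 and 7 of the 36 were called, beside 2.21% of all probes tested in that setting. Fabp1 had 27.7, 25.4 and 36.3 CPM at 10 mM, where 1 library lay above all of medium.

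Akr1a1, an aldehyde reductase, was the call in the list of aldehyde, nitroalkane and propionate metabolism. It stood at 201, 250 and 205 CPM at 1 mM and 186, 226 and 283 CPM at 3 mM, against 135, 101 and 200 CPM in medium. The lowest 3 mM library fell below the highest medium library, and the pooled rise was 0.66 ± 0.15 (adjusted p = 0.0392). It was 1 of 24 probes of that list, whose median was 0.310 pooled with 22 above 0, and 0.181 with 4 called without replicate 3. Aldh3a2, a dehydrogenase of long aldehydes, was at 0.76 ± 0.21 (0.0729), and Aox1, aldehyde oxidase, at 1.34 ± 0.44 (0.125). Other metabolic enzymes called pooled were Pgm1, which interconverts glucose phosphates (1.30 ± 0.31, 0.0449), Cmpk1, a pyrimidine nucleotide kinase (1.76 ± 0.38, 0.0302), and Nit1, which clears deaminated glutathione (0.78 ± 0.17, 0.0302). Sult2a2, a hydroxysteroid sulfotransferase, had 4.06, 5.67 and 7.89 CPM at 1 mM, 4.49, 6.08 and 7.88 CPM at 3 mM and 1.36, 0.428 and 1.51 CPM in medium, a pooled rise of 2.49 ± 0.45 (0.0158). Sulfotransferases of this family are near-identical copies, so its reads may not be its alone.

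Several called genes encode secreted plasma proteins, chosen here from the calls and not as a list. C4bpa and C4bpb are the chains of the complement inhibitor C4b-binding protein. C4bpa stood at 137, 188 and 216 CPM at 1 mM, at 221, 242 and 243 CPM at 3 mM and at 142, 132 and 122 CPM in medium. The 1 mM libraries overlapped with medium while those at 3 mM did not, and the rise was 0.85 ± 0.16 at 3 mM (adjusted p = 0.0232) and 0.66 ± 0.14 pooled (0.0302). C4bpb had 5.12, 8.75 and 8.86 CPM at 1 mM, 8.39, 9.53 and 13.8 CPM at 3 mM and 3.46, 3.43 and 4.39 CPM in medium. It rose by 1.51 ± 0.33 at 3 mM (0.0499) and by 1.28 ± 0.30 pooled (0.042). Apcs, serum amyloid P, rose by 0.93 ± 0.18 at 3 mM (0.0232), with 64.3, 78.9 and 89.8 CPM at 3 mM and 44.3, 41.5 and 37.1 CPM in medium. C1s, a protease of the classical complement pathway, rose by 0.59 ± 0.12 pooled (0.0302).

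Serpind1, an inhibitor of thrombin, was low in every group, with 2.99, 5.05 and 6.19 CPM at 1 mM, 8.27, 4.14 and 7.02 CPM at 3 mM and 0.943, 1.82 and 0.303 CPM in medium. Its pooled rise was 2.38 ± 0.47 (adjusted p = 0.023). Fgl1, a fibrinogen-like protein released by the liver, rose by 0.93 ± 0.20 pooled (0.0302). Serpinf1, pigment epithelium-derived factor, rose by 0.95 ± 0.22 (0.0457), with 349, 468 and 692 CPM at 1 mM, 473, 498 and 702 CPM at 3 mM and 316, 249 and 269 CPM in medium. Hpn, a serine protease of the hepatocyte surface, rose by 0.82 ± 0.19 (0.042). In the list of hepatocyte identity and secreted proteins 0 of 32 probes were called pooled, 30 were above 0 and the median was 0.472; without replicate 3 the median was 0.299 and 1 was called. The fibrinogen chains Fga (0.58 ± 0.17, adjusted p = 0.0754) and Fgb (0.86 ± 0.25, 0.0859) had the smallest p in it. The summed hepatocyte markers had a median of 11200 CPM at 1 mM, 11500 CPM at 3 mM and 8400 CPM in medium, and cholangiocyte markers 1020, 1120 and 1360 CPM. These medians differed beside the genes above, but the libraries overlapped with medium except for cholangiocyte markers at 3 mM. The part of these markers in the result was not tested.

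The called genes RT1-A2, RT1-S2 and RT1-CE7 belong to the class I histocompatibility family, whose members present peptides to T cells. RT1-A2 had 66.8, 108 and 82.2 CPM at 1 mM, 66.2, 77.8 and 87.0 CPM at 3 mM and 58.8, 50.2 and 50.1 CPM in medium. It rose by 0.71 ± 0.14 at 1 mM (adjusted p = 0.0478) and 0.63 ± 0.12 pooled (0.023). RT1-S2 rose by 0.70 ± 0.13 at 1 mM (0.0351) and by 0.53 ± 0.12 pooled (0.0302), and RT1-CE7 rose by 1.13 ± 0.25 pooled (0.0302) but did not pass at 1 mM (0.0709). Probes of this family may share reads, so which member changed is uncertain. In all 3 genes replicate 2 was the highest library at 1 mM, with 674 CPM of RT1-S2 and 27.9 CPM of RT1-CE7. The same library stood apart in interferon response genes: Isg15 had 13.0, 107 and 3.16 CPM at 1 mM, 4.25, 6.91 and 10.1 CPM at 3 mM and 3.77, 7.28 and 7.73 CPM in medium, and Bst2 had 69.3, 147 and 53 CPM at 1 mM and 42.1 to 50.7 CPM in medium. Without that library the 1 mM difference was 0.49 for RT1-A2 (0.445) and 0.53 for RT1-S2 (0.354). The interferon response list had 0 of 12 probes called pooled, with a median of 0.365 at 1 mM, 0.0216 at 3 mM and 0.211 pooled. Without replicate 3 of 1, 3 and 10 mM, 1 of the 12 was called pooled and the median was 0.197.

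Canx was the member called in the list of ER chaperones and the unfolded protein response. Canx, calnexin, holds glycoproteins in the ER until they fold, and its window is printed above. It stood at 181, 215 and 277 CPM at 1 mM, 223, 231 and 333 CPM at 3 mM and 132, 90.3 and 162 CPM in medium, without overlap, and rose by 0.95 ± 0.22 pooled (adjusted p = 0.0391). All 16 probes of the list were above 0 at 1 mM, at 3 mM and pooled, with medians of 0.718, 0.989 and 0.908, against 0.0174, 0.00176 and 0.00455 over all probes. The others missed the threshold. Hsp90b1, the ER form of HSP90, was at 1.18 ± 0.59 pooled (0.314), and Hspa5, the ER HSP70 known as BiP, at 0.88 ± 0.81 (0.613). Outside the list, further proteins of the secretory pathway were called pooled, chosen here from the calls and not as a list. Tmx1, an ER membrane thioredoxin, rose by 0.71 ± 0.14 (0.0255), with 212, 292 and 264 CPM at 1 mM, 216, 238 and 270 CPM at 3 mM and 152, 169 and 141 CPM in medium. Fkbp2, an ER prolyl isomerase, rose by 0.85 ± 0.20 (0.0457), Sdf4, a calcium-binding protein of the Golgi, by 0.73 ± 0.13 (0.0163), and Wdr83os, a small ER membrane protein, by 1.02 ± 0.18 (0.0125).

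The ER list differed between replicates of a concentration, with replicate 3 above the others. The summed level of the 16 probes was 2876, 3584 and 5515 CPM in replicates 1, 2 and 3 at 1 mM, and 3024, 2996 and 8260 CPM at 3 mM. In medium it was 2421, 2342 and 2688 CPM. At 10 mM replicate 3 stood at 16360 CPM beside 2646 and 2835 CPM. Replicate 3 was the highest of its group for 15 of 16 probes at 1 mM and for 16 of 16 at 3 mM and at 10 mM, while at the 5 lower concentrations it was the highest for 5 to 10. Hsp90b1 had 415, 665 and 1338 CPM at 1 mM and 588, 484 and 1920 CPM at 3 mM, against 409, 398 and 400 CPM in medium. Hspa5 had 4.70, 6.17 and 37.4 CPM at 1 mM and 13.7, 10.8 and 29.4 CPM at 3 mM, against 12.5, 10.6 and 4.70 CPM in medium.

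With replicate 3 of 1, 3 and 10 mM left out, a setting chosen after its values were seen, the ER list median was 0.387 at 1 mM, 0.310 at 3 mM and 0.308 pooled, with 15 of 16 above 0 pooled. Canx was then at 0.73 ± 0.17 (adjusted p = 0.0299), and an Ero1b probe (1.06 ± 0.26, 0.0249) and a Dnajc3 probe (0.41 ± 0.11, 0.0482) were called as well. The other Ero1b probe was at 0.10 ± 0.15 (0.776), and the other Dnajc3 probe at 0.57 ± 0.18 (0.0807). In that setting Hspa5 was at -0.21 ± 0.39 (0.836). The counts of calls were 48 at 1 mM, 241 at 3 mM and 272 pooled, of which 7, 26 and 77 were among the calls made with all libraries. Replicate 3 lay in plate column 3 at every concentration, and the part of that position in the result was not tested.

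**Figure D2:**
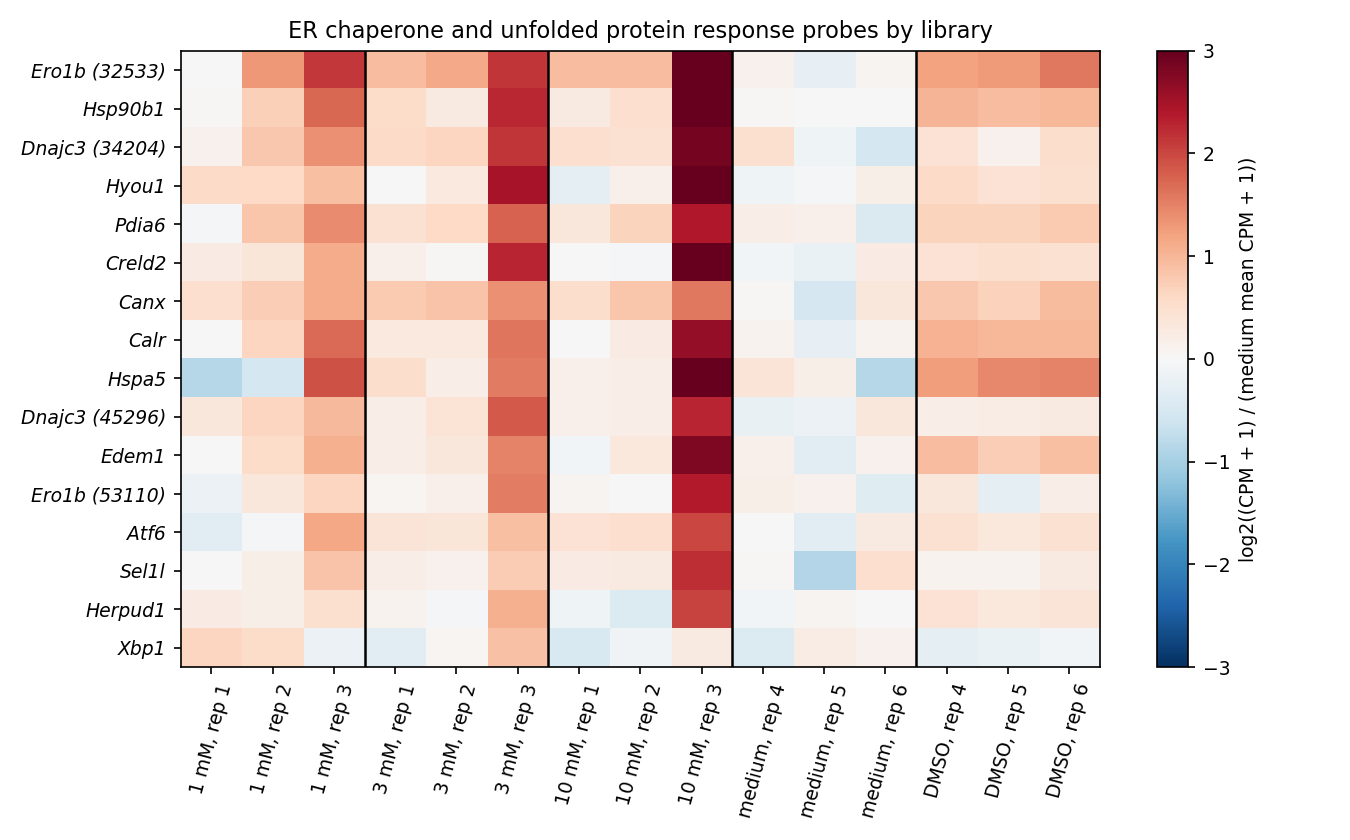
Log2 of (CPM + 1) over (medium mean CPM + 1) for the 16 probes of the ER list (rows) in each library (columns: 1, 3 and 10 mM of 1-nitropropane, medium, DMSO). Replicate 3 of each exposed group is the reddest column of its group, where red marks higher values, and the DMSO libraries lie above medium.

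Fewer genes fell. Mroh2a, a HEAT repeat protein, had 20.2, 11.3 and 10.7 CPM at 1 mM and 16.4, 12.4 and 12.3 CPM at 3 mM, against 40.4, 36.7 and 31.4 CPM in medium. No exposed library reached the lowest medium library, and the log2 difference was -1.36 ± 0.23 pooled (adjusted p = 0.00927) and -1.38 ± 0.28 at 3 mM (0.0337). Fubp1, a protein that binds single-stranded DNA upstream of Myc, had 362, 291 and 271 CPM at 1 mM, 325, 273 and 268 CPM at 3 mM and 393, 490 and 432 CPM in medium, a pooled difference of -0.54 ± 0.11 (0.0302). Atf7, a transcription factor of the CREB family, had 27.7 to 36 CPM in the 6 exposed libraries and 46.7 to 53.2 CPM in medium (-0.62 ± 0.12, 0.019). Sirt6, a nuclear deacylase, fell at 3 mM by 0.83 ± 0.18 on the log2 scale (0.0415), with 11.7, 12.4 and 9.24 CPM at 3 mM and 19.4, 20.9 and 19.9 CPM in medium. Its levels at 1 mM were 16.0, 15.8 and 16.3 CPM.

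Further genes called lower pooled were Ubap1l (-1.31 ± 0.26, adjusted p = 0.023), the zinc finger gene Zbtb40 (-0.68 ± 0.16, 0.0488) and the Ral activator Ralgps1 (-0.66 ± 0.16, 0.0459). The protease Adamts10 (-0.64 ± 0.15, 0.0459), Rhpn2 (-0.52 ± 0.12, 0.0323), the centrosome protein Tacc2 (-0.48 ± 0.11, 0.042) and the endocytic adaptor Eps15l1 (-0.47 ± 0.11, 0.0484) were lower as well. Prom1, a surface protein also known from progenitor cells, had 2.48 to 4.28 CPM in the exposed libraries and 5.66 to 8.78 CPM in medium (-1.10 ± 0.26, 0.042). The cholangiocyte marker Krt19 did not pass (-0.87 ± 0.23, 0.0626). Cholangiocyte probes did not all fall: 3 of the 8 tested were above 0 pooled, the highest at 0.405.

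Some genes are known readouts of toxicity, and none of the 11 chosen for this purpose was called in any of the 3 contrasts. Ccng1, a p53 target, had 8.54, 9 and 10.4 CPM at 1 mM, 8.74, 11.2 and 10.1 CPM at 3 mM and 3.25, 0.321 and 8.94 CPM in medium. Its pooled difference was 1.30 ± 0.50 (adjusted p = 0.186), and the medium libraries spread more widely than the exposed ones. The other p53 targets Cdkn1a (-0.11 ± 0.25, 0.868) and Mdm2 (-0.24 ± 0.11, 0.278) were near or below medium. Of NRF2 targets, Hmox1 was at 0.22 ± 0.20 (0.612), Nqo1 at 0.44 ± 0.29 (0.446) and Gclc at 0.40 ± 0.27 (0.469). Of the amino acid response, Asns was at 0.26 ± 0.29 (0.68), Trib3 at 0.20 ± 0.12 (0.412) and Ddit3 at -0.01 ± 0.14 (0.987). The cytochromes Cyp1a1 (0.79 ± 0.74, 0.62) and Cyp2e1 (-0.51 ± 0.48, 0.617) varied widely among libraries. Cyp1a1 had 5.23, 16.6 and 30.9 CPM at 1 mM.

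The other lists, pooled against medium, are given by calls, median log2 difference and the members with the smallest p. NRF2 targets had 0 of 32 called, 30 above 0 and a median of 0.318, with Gsta3 at 1.99 ± 0.49 (adjusted p = 0.0529). Without replicate 3 of the 3 highest concentrations 3 were called and the median was 0.172. Metallothioneins and zinc genes had 0 of 6 called and a median of 0.758, with the zinc and manganese exporter Slc30a10 at 1.21 ± 0.42 (0.135), and a median of 0.171 without those libraries. CAR and PXR targets had 0 of 11 called and a median of 0.451, with Cyp2b3 at 1.30 ± 0.34 (0.0626) and Cyp2c24 at 1.49 ± 0.43 (0.0773). Bile acid synthesis and transport had 0 of 11 called and a median of 0.682, with Akr1c14 at 0.86 ± 0.27 (0.105). Without replicate 3 the medians of these last lists were 0.267 for CAR and PXR targets, with 0 of 12 called, and 0.381 for bile acid genes, with 1 of 12 called. Fatty acid and triglyceride synthesis had 0 of 20 called and a median of 0.227, with the lipogenic protein Thrsp at 1.13 ± 0.31 (0.0693) and Fasn, fatty acid synthase, at -0.48 ± 0.17 (0.141). Without replicate 3 that median was 0.152 and 2 of 20 were called, among them Fasn at -0.47 ± 0.10 (0.0124).

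Medians nearer to 0 were found for several programmes, each with no call when all libraries were kept. The p53 targets had a median of -0.0708 over 22 probes, with Pmaip1 at -0.59 ± 0.17 (adjusted p = 0.0765). The ATF4 and amino acid response list had 0.0303 over 28, with Cth at 0.71 ± 0.23 (0.107). Heat shock had 0.163 over 12, with Cryab at 0.51 ± 0.19 (0.178). AhR targets had 0.168 over 6, with Cyp1a2 at -0.55 ± 0.25 (0.258). Cholesterol synthesis had -0.00788 over 21, with Fdps at 0.44 ± 0.20 (0.257). Inflammation and chemokines had 0.0285 over 24, with Cxcl10 at 1.24 ± 0.32 (0.0617). The cell cycle list had -0.167 over 23, with Tyms at -0.27 ± 0.21 (0.535). Hypoxia and glycolysis had 0.0987 over 25, with Gapdh at 0.38 ± 0.11 (0.0756). Actin and SRF targets had -0.0717 over 23, immediate early genes -0.0545 over 25, with Jun at 0.84 ± 0.24 (0.0737), and proteasome subunits 0.0735 over 22. Of the marker lists, cholangiocyte probes had -0.249 over 8, stellate cell probes -0.297 over 3, Kupffer cell probes -0.0241 over 2 and the single endothelial probe -0.0328. Without replicate 3 several of these medians lay on the other side of 0: 0.0367 for the cell cycle, -0.0236 for ATF4, -0.0241 for the proteasome, 0.0273 for cholesterol synthesis and 0.0225 for the endothelial probe. In the same setting heat shock had 0.0728, AhR targets 0.012 and hypoxia and glycolysis 0.0623. Calls there were 3 of 24 for inflammation, 2 of 28 for ATF4 and 1 of 25 for immediate early genes. For cholangiocyte probes they were 2 of 8, beside 2.21% of all probes tested. Among the called probes were Cxcl10 (1.17 ± 0.24, adjusted p = 0.0105), Cth (0.51 ± 0.13, 0.0313) and Etv4 (-0.68 ± 0.12, 0.00365). The other lists named here had no call. No lymphocyte or erythroid probe passed the filter on low counts.

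**Figure D3:**
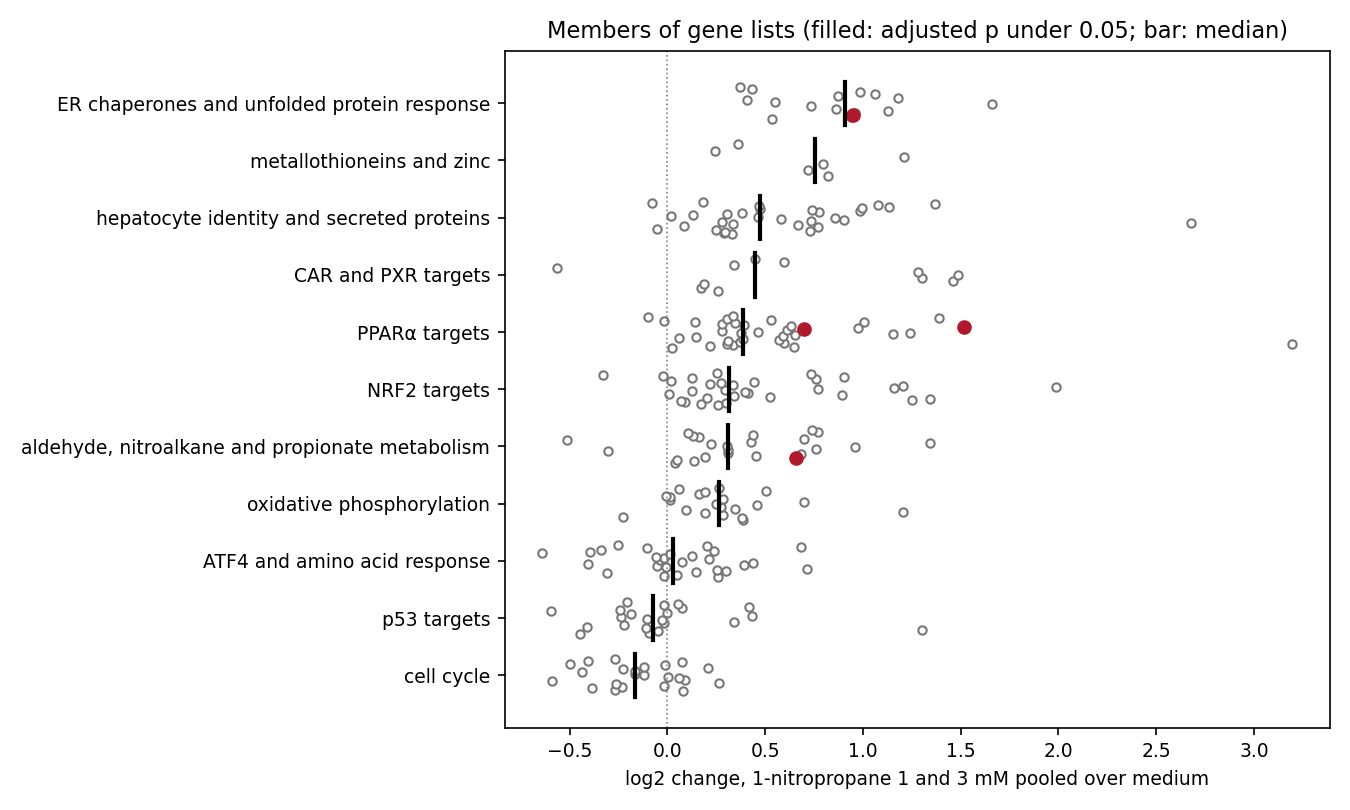
Log2 change of 1-nitropropane 1 and 3 mM pooled over medium for the tested probes of 11 gene lists; each circle is a probe, filled where the adjusted p was under 0.05, and the bar is the median. The ER list sits wholly above 0 with a median of 0.908, and the cell cycle list has a median of -0.167, which is 0.0367 without replicate 3 of 1, 3 and 10 mM.

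The 2 concentrations were then set against each other. Between 3 mM and 1 mM edgeR called 0 of 12129 probes (0%), DESeq2 called 0, and 217 had an unadjusted p under 0.05. Fabp1 was higher by 0.62 on the log2 scale at 3 mM, as the difference of its effects against medium, with levels that did not overlap between the concentrations. No adjusted p in this contrast was below 1.

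The same 6 libraries were compared with other controls of their set. The 12 libraries of 1NP at 0.003 to 0.1 mM lay in the same plate columns but in other rows, so concentration and plate row cannot be told apart. Against them 18 of 12051 probes were called (0.149%), and 1382 had an unadjusted p under 0.05. The 83 probes called against medium kept a median log2 difference of 0.306 for the 66 higher ones and -0.171 for the 17 lower ones, and 3 were called, namely Ndufs5 (0.64 ± 0.13, adjusted p = 0.0488), Hpn (0.60 ± 0.12, 0.0426) and Tubb4b, a tubulin (0.33 ± 0.07, 0.0421). Fabp1 ranged from 20.2 to 87.6 CPM in the low-concentration libraries, with a median of 44.7 CPM, and its difference was 0.52 with an adjusted p of 0.227. For Mroh2a the median was 15.7 CPM. The ER list had a median of 0.673 with all 16 probes above 0 and none called, PPARα targets 0.205 and hepatocyte genes 0.255. By library, the ER list median relative to the medium mean was 0.0222, 0.576 and 1.12 at 1 mM and 0.248, 0.292 and 1.59 at 3 mM. In the 12 low-concentration libraries it was -0.0124 to 0.467. Replicates 1 and 2 at 3 mM and replicate 1 at 1 mM thus lay within the range of the low concentrations. At 0.3 mM it was 0.409, 0.631 and 0.55, a range that takes in replicate 2 at 1 mM.

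Against medium the 66 higher probes already had a median of 0.774 at 0.01 mM, 0.722 at 0.03 mM and 0.686 at 0.1 mM, beside 0.862 at 1 mM and 0.946 at 3 mM. The 17 lower probes had -0.730, -0.629 and -0.581 beside -0.651 and -0.686. These contrasts share their medium libraries, and the probes were chosen at 1 and 3 mM, so the values are given as a description. At 0.003 mM the medians were 0.401 and -0.337, and at 0.3 mM they were 0.622 and -0.555.

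Against the 3 DMSO libraries, 385 of 12099 probes were called (3.18%). The 83 probes had medians of 0.104 and 0.124 there, for those higher and those lower than medium, and 4 were called. Fabp1 had 123, 80.6 and 121 CPM in DMSO, and the pooled difference was -0.73; the DMSO libraries were all above those at 1 mM and overlapped with those at 3 mM. C4bpa had 398, 358 and 382 CPM in DMSO, and Ndufs5 had 19.0, 21.5 and 21.4 CPM. Mroh2a had 7.45, 11.8 and 12.7 CPM in DMSO, with a difference of 0.37. The ER list median was 0.182 against DMSO, that of PPARα targets -0.348 and that of hepatocyte genes -0.411, with 9 of the last called lower. The direction for Fabp1, C4bpa, Ndufs5 and Mroh2a thus turned with the choice of control.

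**Figure D4:**
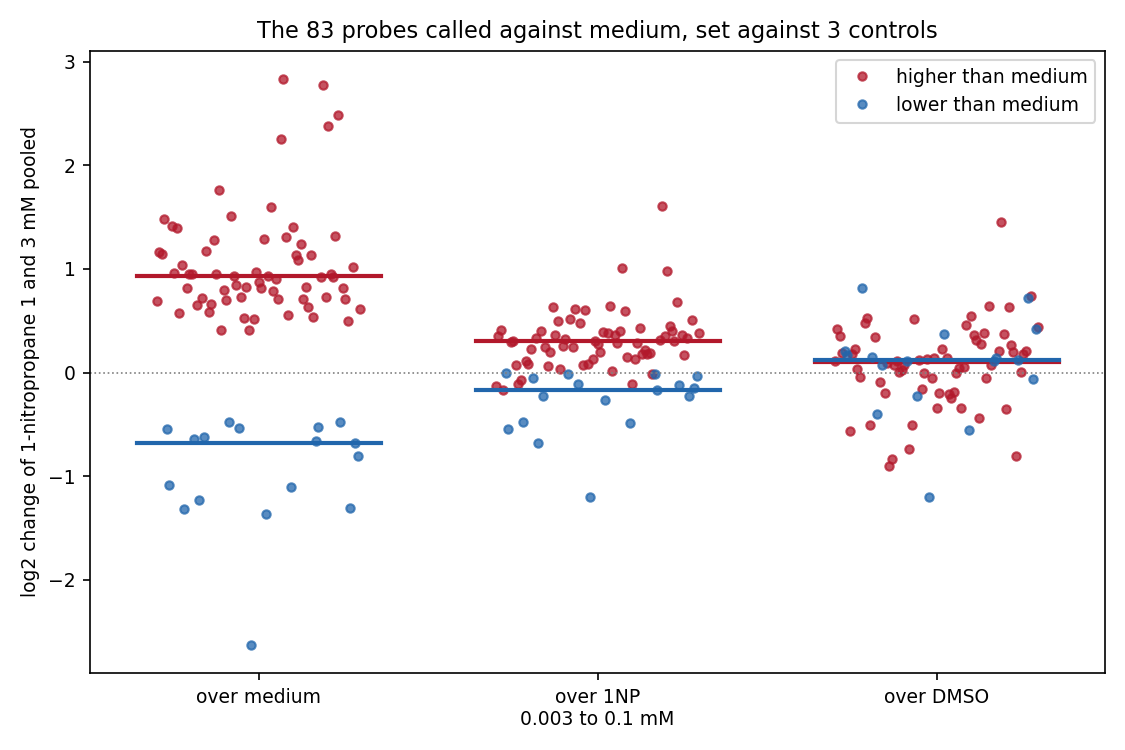
Log2 change of 1-nitropropane 1 and 3 mM pooled for the 83 probes called against medium, over medium, over the 0.003 to 0.1 mM libraries and over DMSO; each point is a probe and the bars are medians. Over the low concentrations the medians are 0.306 and -0.171, and over DMSO they are 0.104 and 0.124.

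Nitroethane and nitromethane, whose carbon chains are shorter than that of 1NP, were compared at the same concentrations and time, each against the medium of its own library set. No probe differed in its response between 1NP and NE at 1 mM (0 of 11780, 0%) or at 3 mM (0 of 11729, 0%), nor between 1NP and NM at 1 mM (0 of 11798) or 3 mM (0 of 11792), with p-values adjusted over the 4 comparisons together. At an unadjusted p under 0.05 there were 825, 964, 797 and 1056 probes, and DESeq2 called 1, 3, 0 and 4. Without 1NP replicate 3 edgeR called 70 probes for NE at 3 mM and 2 for NM at 3 mM, and leaving out NM replicate 1 or NM replicate 2 gave 1 each for NM at 3 mM. A p that misses the threshold does not show equal responses, and the intervals below give the range left by these data.

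Fabp1 was higher than its medium by 1.82 with 1NP and 2.20 with NE at 3 mM, a difference of -0.38 (95% interval -0.92 to 0.17, adjusted p = 0.704). With NM at 3 mM it was higher by 1.03, a difference of 0.78 (-0.03 to 1.60, 0.643). Canx was at 1.05 with 1NP and 1.11 with NE at 3 mM (difference -0.06, -0.57 to 0.45, 0.957), and at 0.16 with NM (difference 0.89, -0.04 to 1.82, 0.645). Ndufs5 was at 1.59 with 1NP and 1.16 with NE at 3 mM (0.44, -0.39 to 1.26, 0.77), and at 0.40 with NM (1.18, 0.19 to 2.17, 0.641). Mroh2a was at -1.38 with 1NP and -0.38 with NE at 3 mM (-1.0, -1.53 to -0.47, 0.641), and at 1.32 with NM (-2.71, -4.44 to -0.97, 0.641). The last 3 intervals lie to one side of 0, but none passed the adjustment.

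As lists, the ER probes had a median effect of 0.990 with 1NP and 1.34 with NE at 3 mM, and of 0.988 with 1NP and 0.232 with NM. At 1 mM the medians were 0.697 with 1NP and 0.560 with NE, and 0.696 with 1NP and 0.0151 with NM. PPARα targets had 0.526 with 1NP and 0.595 with NE at 3 mM, and 0.522 with 1NP and 0.231 with NM. Against medium without replicate 3 of 1, 3 and 10 mM, the 1NP medians at 3 mM were 0.310 for the ER list and 0.239 for PPARα targets. No member of either list differed at an adjusted p under 0.05. Of the 83 probes called pooled for 1NP, 77 had the same sign of effect with NE at 3 mM and 41 with NM. At 1 mM the numbers were 44 and 30. The share of all tested probes whose effects had the same sign was not counted, so these numbers are a description. The 83 probes were chosen on the 1NP libraries. Their larger median absolute effect with 1NP, 0.941 against 0.627 with NE at 3 mM, is thus a description too.

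At 10 mM, the next concentration of 1NP, 826 probes were higher than in medium (6.81%). Of the lists described above, the ER list then had 8 of 16 probes called higher, with a median of 1.49, PPARα targets 11 of 36 with 0.704 and NRF2 targets 8 of 32 with 0.611. In replicates 1, 2 and 3 at 10 mM the median relative to the medium mean was 0.155, 0.262 and 2.52 for the ER list, 0.023, 0.00134 and 1.32 for PPARα targets and 0.0187, 0.0015 and 1.31 for NRF2 targets. Replicate 3 stood apart from the other libraries in all 3 lists.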

How the data were processed

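Counts per TempO-Seq probe were deposited by the authors as 1 raw table for 105 libraries, not normalised. The submitters' processing notes name FastQC, Bowtie, R 3.5.3 and DESeq2 1.28.1; the sources used here give no genome build or aligner settings. From these counts, edgeR 4.0.16 (R 4.3.3) was run on the 27 libraries of 1-nitropropane and medium of set 2: default filter (minimum count 10), TMM factors, robust quasi-likelihood F test, Benjamini-Hochberg adjustment over all probes kept, threshold 0.05. The pooled contrast is the mean of the 1 and 3 mM effects. SE is the log2 effect over the square root of F. Compound differences are interaction terms over 12 libraries. Levels are CPM with TMM factors, and concern probes, not transcript length. The steps were checked on simulated data. Comparisons, members and gene lists were chosen with earlier results of these data known. By rule, named genes were called probes of at least 5 CPM without overlap between groups, up to 15 in each direction. Up to 3 called members of each list were named too, or otherwise the members with the smallest p. Other called genes and list members were named after their values were seen and need not meet the rule. Not all probes that met the rule are described. Alternatives included DESeq2 1.42.0, other scalings, filters, controls and left-out libraries.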

Additional observations from a re-analysis of the deposited data

How the results depend on the processing

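Counts of probes called at 1 mM, at 3 mM and pooled were 8, 27 and 83. They became 57, 305 and 442 with DESeq2, 327, 653 and 771 with no filter on low counts, 0, 10 and 1 with the compared libraries alone, 15, 124 and 334 with all 33 libraries of the set, 38, 511 and 590 without the 10 mM libraries, and 180, 69 and 385 against DMSO. Against 0.003 to 0.1 mM they were 0, 15 and 18. At 1 mM, library totals gave 2 calls and counts summed per gene 0. Added after the data were seen, leaving out 10 mM replicate 3 gave 49, 537 and 672, and leaving out replicate 3 of 1, 3 and 10 mM gave 48, 241 and 272. With 1 library of the compared groups (1 mM, 3 mM or medium) left out the counts ranged over 0 to 290, 0 to 415 and 0 to 667. Between 3 and 1 mM no filter gave 22 calls.

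Differences between compounds had 0 calls. For nitroethane DESeq2 gave 1 at 1 mM and 3 at 3 mM, and no filter 93 and 35. For nitromethane no filter gave 118 at 1 mM and 5 at 3 mM, and DESeq2 4 at 3 mM. With 1 library left out the counts at 3 mM were 0 to 70 for nitroethane and 0 to 2 for nitromethane.

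Against DMSO the following log2 differences turned sign, and the cause was not tested. At 1 mM they were Ndufs5 -0.21, RGD1565355 -0.47 and LOC103690020 -0.40. At 3 mM they were Fabp1 -0.42, Ndufs5 -0.21, C4bpb -0.59, RGD1565355 -0.40, LOC103690020 -0.29, C4bpa -0.71, AC120922.1 0.66 and Mroh2a 0.35. Pooled they were Ndufs5 -0.21, Fabp1 -0.73, C4bpb -0.83, RGD1565355 -0.44, AC114204.1 -0.046, Mroh2a 0.37, Ubap1l 0.72, Ralgps1 0.12, Adamts10 0.15, Atf7 0.078, AABR07040412.1 0.21, Rhpn2 0.14, Tacc2 0.12 and Eps15l1 0.11. Against the low concentrations AC114204.1 was at -0.066, and at -0.068 with the replicate block.

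Over all tested probes, libraries of the same number at 1 and 3 mM deviated together with r of 0.018, 0.0365 and 0.0593. In the ER list replicate 3 was nonetheless the highest for 15 of 16 probes at 1 mM and 16 of 16 at 3 mM. The main fits did not take the numbers as pairs. With the replicate block against the low concentrations the counts were 0, 55 and 86, beside 0, 15 and 18 without it. Between 3 and 1 mM the block gave 0.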

Other observations

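Some genes were called for 1-nitropropane 1 and 3 mM pooled against its 0.003 to 0.1 mM libraries but not against medium, and they were picked after their values were seen. Nat1, an arylamine acetyltransferase, had 50.5, 65.6 and 46.5 CPM at 1 mM and 52.7, 66.7 and 80.7 CPM at 3 mM, against 34.1 to 46.2 CPM with a median of 39.1 CPM in the 12 low-concentration libraries. Its difference was 0.61 on the log2 scale (adjusted p = 0.0149, edgeR). Ccng1, the p53 target, was higher by 1.12 (0.0421), with 1.58 to 7.08 CPM in the low-concentration libraries, and was the only call of the 22 p53 target probes in that contrast. Against DMSO neither gene was called, with Nat1 at 0.29 (0.229) and Ccng1 at 0.38 (0.502). The DMSO libraries had 4.72 to 9.37 CPM of Ccng1. Lgals1, a galectin, was lower, with a difference of -0.75 (0.0377), but higher than in DMSO, with a difference of 0.91 (0.0168). The medium libraries do not enter this contrast.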
